A study of Mus musculus with 8 samples.

Results

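In all, 10 genes of the epithelial cell junction were followed in the posterior palatal shelf, the embryonic tissue that grows into the palate, of mice at E14.5. They were chosen by name: the claudin genes Cldn1, Cldn3, Cldn4, Cldn6, Cldn7, Cldn8 and Cldn23, the occludin gene Ocln, the E-cadherin gene Cdh1 and the gene of the epithelial cell adhesion molecule, Epcam. All 10 stood in the deposited table of 55536 genes. RNA was sequenced from 4 mutant libraries, genotype Yapfl/fl;Tazfl/fl;Col2Cre, and 4 control libraries, genotype Yapfl/fl;Tazfl/fl, so every library carried floxed alleles of both genes and the mutants alone carried the Cre. Col2Cre is a Cre transgene driven by regulatory sequence of Col2a1, a cartilage collagen gene, and the cells in which it acts in these shelves were not measured. Right and left non-elevated shelves were taken with epithelium and mesenchyme together. No label says that the libraries came from separate animals, so p-values cover only how far these samples scatter, which may in part be technical.

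Tight junctions seal the space between neighbouring epithelial cells near their upper edge, and claudins are the membrane proteins whose mixture sets what the seal lets through. Occludin is a second membrane protein of the same junction. E-cadherin forms the adherens junction just below, which holds the cells together and passes signals to the Hippo pathway that restrains YAP and TAZ. EpCAM is an epithelial surface protein that binds claudin-7 and stabilises it. In the palate these proteins belong to the surface epithelium, whose outermost layer, the periderm, keeps the shelves from sticking to other oral surfaces before they meet.

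The libraries held 29025089 to 32437977 reads recovered from the table, and the smallest number behind any of the 10 genes was 38 reads, for Cldn23. Yap1 had 8221.2 to 8745.0 normalised read counts in mutants, against 9094.6 to 10086 in controls, without overlap (limma log2 difference -0.18, SE 0.0520, adjusted p = 0.751). Wwtr1, which encodes TAZ, had 3649.9 to 4574.3 in mutants and 4448.6 to 5305.2 in controls (limma log2 difference -0.29, SE 0.0773, adjusted p = 0.751). These are gene-wide counts, and no label says which exons the floxed alleles lose. A ribosomal RNA locus, Gm42418, took 1.56% to 2.48% of the reads in mutants and 4.22% to 5.66% in controls, and its part in the values below was not tested. Keratin genes and other epithelial genes were present in every library, as were mesenchymal markers: the 16 epithelial reference genes summed to 32528 to 60714 normalised read counts in mutants and 31596 to 43720 in controls, and none of the 16 was at 0 throughout.

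Promoter windows from 250 bases before to 50 bases after a gene's start were taken from RefSeq on GRCm38.p6 for 7 of the 10 genes, in 9 windows; Cldn8, Cldn23 and Cdh1 had none in that table. Gene positions are given on GRCm38, since 95.2% of the gene IDs found in both the deposited table and GENCODE had identical starts and ends there. Windows of the genes with the largest differences between the groups, Cldn7, Cldn4 and Cldn6, and of Cldn1, whose difference had the opposite sign, are printed 5′ to 3′ on the strand of the gene. Capitals mark the E-box CAGGTG, the motif of the ZEB and SNAI repressors of epithelial genes, and AACCGG, the core of the Grainyhead-like site, on either strand. Cldn7 is shown at its second start (chr11:69965171-69965470, plus strand), Cldn4 at chr5:134946885-134947184 (minus strand), Cldn6 at chr17:23679115-23679414 (plus strand) and Cldn1 at chr16:26371790-26372089 (minus strand).
Cldn7: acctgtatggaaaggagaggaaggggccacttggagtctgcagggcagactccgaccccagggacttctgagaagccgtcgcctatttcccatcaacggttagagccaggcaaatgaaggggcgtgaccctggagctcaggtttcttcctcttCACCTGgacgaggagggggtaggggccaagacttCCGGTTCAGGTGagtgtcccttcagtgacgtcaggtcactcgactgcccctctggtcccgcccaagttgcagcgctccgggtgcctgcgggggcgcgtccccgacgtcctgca
Cldn4: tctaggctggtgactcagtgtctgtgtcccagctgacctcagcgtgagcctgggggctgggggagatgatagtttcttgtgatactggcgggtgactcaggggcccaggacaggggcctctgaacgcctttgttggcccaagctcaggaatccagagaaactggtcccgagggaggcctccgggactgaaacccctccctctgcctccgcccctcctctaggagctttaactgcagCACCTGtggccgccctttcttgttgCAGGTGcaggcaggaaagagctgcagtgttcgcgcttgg
Cldn6: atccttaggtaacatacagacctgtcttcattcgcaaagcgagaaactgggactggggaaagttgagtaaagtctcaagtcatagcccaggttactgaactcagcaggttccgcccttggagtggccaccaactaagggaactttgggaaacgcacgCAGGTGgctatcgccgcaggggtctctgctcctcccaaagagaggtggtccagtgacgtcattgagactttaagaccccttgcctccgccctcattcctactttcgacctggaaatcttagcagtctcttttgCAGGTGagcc
Cldn1: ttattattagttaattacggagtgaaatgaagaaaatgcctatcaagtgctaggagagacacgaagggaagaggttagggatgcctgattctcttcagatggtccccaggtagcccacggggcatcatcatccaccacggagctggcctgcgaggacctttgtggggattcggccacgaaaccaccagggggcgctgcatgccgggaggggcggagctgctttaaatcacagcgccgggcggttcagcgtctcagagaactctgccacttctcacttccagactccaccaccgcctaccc

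The E-box stood in 7 of the 9 windows, from 6 of the 7 genes, against 20.2% of all 32851 windows in the table. The 2 windows of Ocln overlap and share an E-box, which is thus counted in both. It begins at base 8 after the start of one window and 213 bases before that of the other. Cldn1 was the gene without it, and the first start of Cldn7 also had none. In the Cldn7 window above, an E-box begins 57 bases before the start and directly follows a Grainyhead-like core that begins 63 bases before it. In Cldn4 the E-boxes begin 14 bases before the start and at base 12 after it, and in Cldn6 93 bases before and at base 41. The Grainyhead-like core was found in 2 of the 9 windows, from Cldn7 and Ocln, against 6.83% of all windows. The GC box GGGCGG stood in 8 of 9 windows (35.7% of all windows), the TEAD motif GGAATG in 2 (14.7%), from Cldn6 and the first start of Cldn7, the AP-1 motif TGANTCA in 1 (7.81%), from Cldn4, and the TATA box TATAAA in 0 (13.6%). All motifs were searched on both strands, no matches of different motifs overlapped, and a match describes letters in the window only.

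Cldn1 lies on chromosome 16 from 26356642 to 26371841, Cldn8 on the same chromosome from 88560828 to 88563183, and Cldn23 on chromosome 8 from 35824712 to 35826559. Cdh1 also lies on chromosome 8, from 106603351 to 106670246, Ocln on chromosome 13 from 100496507 to 100552718 and Epcam on chromosome 17 from 87635979 to 87651106. The 10 genes covered a wide range of levels. Per kilobase of exon, which allows levels of different genes to be compared, Epcam was the highest, with 1720 ± 340 normalised read counts per kb in mutants and 1519 ± 262 in controls (SD, n = 4 each). Cdh1 followed with 1290 ± 293 per kb in mutants and 1079 ± 179 in controls, and Cldn6 with 1031 ± 201 in mutants and 777 ± 93.6 in controls. Cldn4 had 846 ± 199 in mutants and 637 ± 110 in controls. In this order each gene exceeded the next in 8 of 8 libraries, although the ranges over libraries touched for all but the step from Cldn4 to Cldn3. Cldn3 stood at 315 ± 90.2 per kb in mutants and 244 ± 10.9 in controls, and Cldn7 at 308 ± 71.5 in mutants and 205 ± 64.3 in controls. Cldn3 exceeded Cldn7 in 4 of 8 libraries and Cldn7 exceeded Cldn1 in 5 of 8, so these neighbours did not differ beyond their spread. Cldn1 was at 188 ± 13.6 in mutants and 220 ± 50.5 in controls, Cldn8 at 104 ± 33.3 in mutants and 110 ± 30.0 in controls, and Ocln and Cldn23 were lowest, between 20.1 and 89.0 in any library.

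Of the 10 genes, 8 had a higher mean log2 level in mutants and 2 a lower one, beside 50% of all 16647 genes tested that were higher. None passed the limma test across all genes (Benjamini-Hochberg adjusted p, 0 of 10, against 0.024% of all genes), nor did any pass in edgeR (0.03% of all genes) or DESeq2 (0.168%) on recovered reads. At an unadjusted limma p under 0.05 there were 3 of 10, Cldn4, Cldn6 and Cldn7, all higher in mutants, and 0 lower. That count was 1 without mutant replicate 2 and 2 without mutant replicate 4, control replicate 2 or control replicate 3. It was 4 without control replicate 4 and 5 without mutant replicate 1. Over all genes 6.57% had such a p, 2.78% higher and 3.79% lower in mutants. For each of the 10 the libraries of the groups overlapped, whereas 3.77% of all genes had no overlap, 1.86% with all mutants above all controls and 1.91% with all mutants below. The median log2 difference of the 10 was 0.25, against -0.00015 over all genes, and with 1 library left out it was 0.15 (mutant replicate 2), 0.14 (control replicate 2) or 0.38 (control replicate 4). In bulk tissue, a different number of epithelial cells and a different amount of a transcript per cell cannot be told apart.

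**Figure D1:**
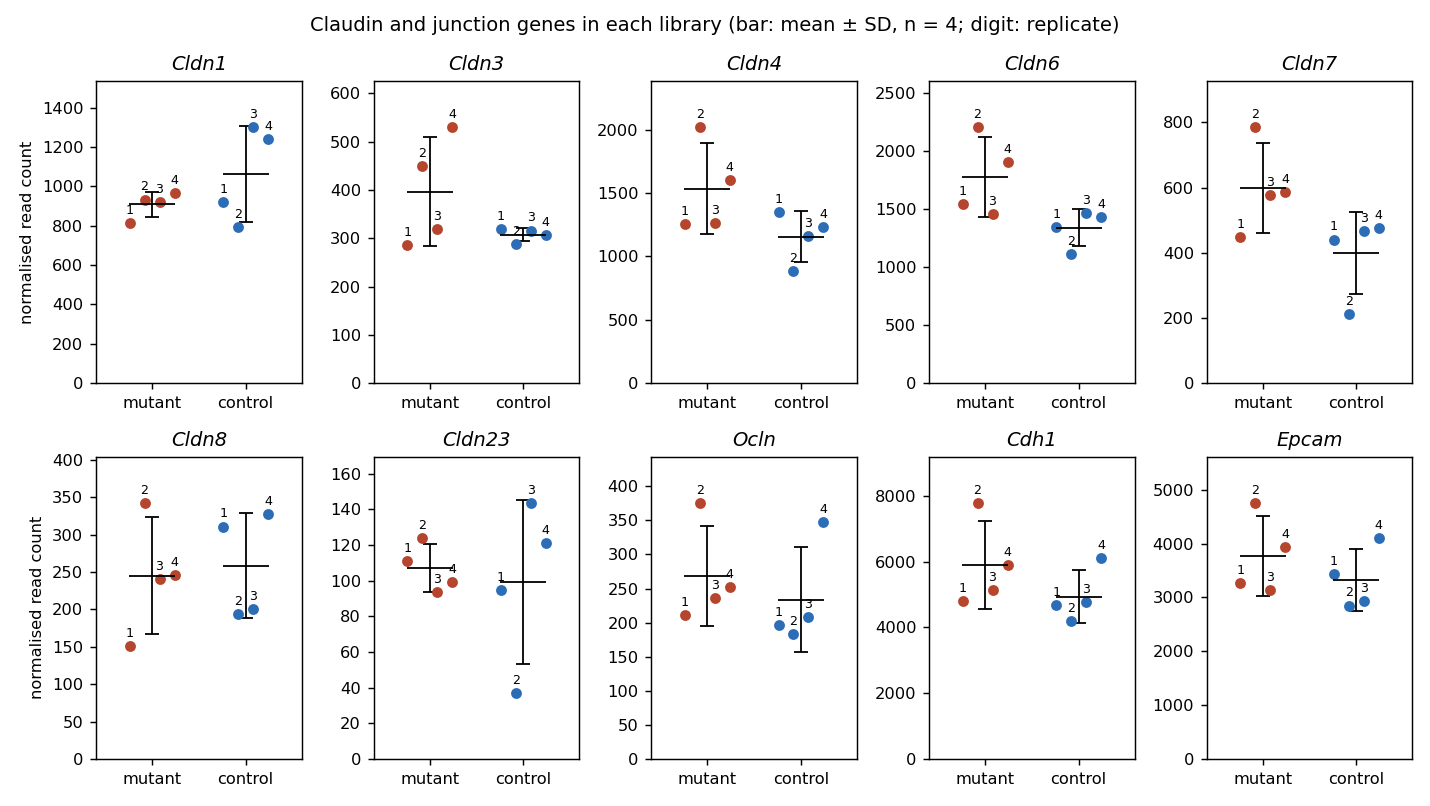
Normalised read counts of the 10 junction genes (vertical axes from 0, each gene on its own scale) in mutants, left, and controls, right; points are libraries with their replicate number, and bars show mean and SD (n = 4). Mutant replicate 2 was highest for 7 of the 10 genes and control replicate 2 lowest for 8, and the groups overlapped for each gene.

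Cldn7 is the claudin that EpCAM binds. It had 448.3, 785.6, 576.0 and 586.6 normalised read counts in mutant replicates 1 to 4, against 440.8, 212.8, 467.8 and 476.3 in control replicates 1 to 4. Mutant replicates 2, 3 and 4 lay above every control, and control replicate 2 was far below the other controls. The means were 599 ± 139 in mutants and 399 ± 125 in controls (SD, n = 4 each). The limma log2 difference was 0.63 (SE 0.251, 95% interval 0.08 to 1.17, adjusted p = 0.754), and 0.35 without control replicate 2. Cldn7 (ENSMUSG00000018569, chromosome 11 from 69964779 to 69967885) had the largest difference of the 10.

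Cldn4 and Cldn3, which both encode receptors of a clostridial enterotoxin, lie on chromosome 5, from 134945119 to 134946934 and from 134986214 to 134987472. Cldn4 had 1257.3, 2020.7, 1262.0 and 1602.2 normalised read counts in mutants, against 1352.3, 882.5, 1163.4 and 1231.5 in controls. All mutants lay above the control median, but control replicate 1 exceeded mutant replicates 1 and 3. The limma log2 difference of Cldn4 was 0.40 (SE 0.163, 95% interval 0.04 to 0.75, adjusted p = 0.754), and 0.26 without mutant replicate 2. Cldn3 had 286.9, 450.5, 319.4 and 530.0 in mutants, against 319.4, 288.9, 316.0 and 306.4 in controls. The controls were close together and mutant replicates 2 and 4 stood above them, so the coefficient of variation was 28.6% in mutants and 4.44% in controls. The limma log2 difference of Cldn3 was 0.32 (SE 0.188, 95% interval -0.09 to 0.73, adjusted p = 0.778), and 0.17 without mutant replicate 4. In Cldn3, 40 of the 1259 bases of exon are shared with the antisense gene Wbscr25, and no source used here gives the strand setting of the counting.

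Cldn6, a claudin of embryonic epithelia, had 1540.3, 2203.3, 1454.0 and 1901.5 normalised read counts in mutants, against 1343.8, 1108.9, 1465.1 and 1433.8 in controls. Mutant replicate 3 was the only mutant library within the range of the controls. The means were 1775 ± 345 in mutants and 1338 ± 161 in controls (SD, n = 4 each). The limma log2 difference was 0.40 (SE 0.132, 95% interval 0.11 to 0.68, adjusted p = 0.754), with an unadjusted p of 0.0115 that was undercut by 1.36% of all genes. Cldn6 (ENSMUSG00000023906, chromosome 17 from 23679365 to 23682446) has Cldn9 as its neighbour, 138 bases away. Cldn9 itself had 28.5 ± 11.9 normalised read counts in mutants and 32.7 ± 12.2 in controls, a log2 difference of -0.20 (SE 0.483).

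Cldn1, which the mouse epidermis needs for its water barrier, stood on the other side. It had 813.9, 933.2, 918.5 and 965.9 normalised read counts in mutants, against 920.0, 795.6, 1300.9 and 1239.3 in controls. The mutants were close together, and control replicates 3 and 4 lay above all of them while control replicate 2 lay below all of them. The means were 908 ± 65.7 in mutants and 1064 ± 245 in controls (SD, n = 4 each), and the limma log2 difference was -0.20 (SE 0.145, 95% interval -0.52 to 0.12, adjusted p = 0.817). The Cldn1 difference was -0.095 without control replicate 3, -0.12 without control replicate 4 and -0.33 without control replicate 2. Cldn8, a claudin known from kidney tubules, had 150.7, 342.6, 241.2 and 245.8 in mutants, against 310.9, 194.3, 201.1 and 328.0 in controls. Its libraries were mixed between the groups (limma log2 difference -0.09, SE 0.262, adjusted p = 0.966), and the sign turned when mutant replicate 1 (0.12), control replicate 1 (0.0074) or control replicate 4 (0.033) was left out. Cldn23, the lowest of the claudin members by count, had 110.9, 124.0, 93.6 and 99.1 in mutants, against 94.8, 37.1, 143.6 and 120.8 in controls. Controls spanned the whole range of mutants, and the limma log2 difference of 0.26 (SE 0.376, adjusted p = 0.923) became -0.15 without control replicate 2, 0.49 without control replicate 3 and 0.41 without control replicate 4.

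Ocln, the occludin gene, had 211.0, 375.7, 235.4 and 251.9 normalised read counts in mutants, against 195.9, 183.5, 208.3 and 347.6 in controls. Each mutant exceeded 3 of the 4 controls, and control replicate 4 stood apart at a level near mutant replicate 2 (limma log2 difference 0.21, SE 0.239, adjusted p = 0.891). Leaving out mutant replicate 2 put the Ocln difference at 0.039, control replicate 2 at 0.11 and control replicate 4 at 0.42. Cdh1 had 4790.2, 7785.5, 5124.1 and 5903.9 in mutants, against 4676.7, 4186.8, 4780.9 and 6105.4 in controls. Here too all mutants lay above 3 of the 4 controls, and the limma log2 difference of 0.25 (SE 0.145, 95% interval -0.07 to 0.56, adjusted p = 0.782) was 0.10 without mutant replicate 2. Epcam had 3269.3, 4758.8, 3129.9 and 3940.7 in mutants, against 3444.7, 2850.4, 2936.3 and 4103.0 in controls. The groups were mixed, with 1 mutant above every control, and the limma log2 difference was 0.17 (SE 0.140, 95% interval -0.13 to 0.48, adjusted p = 0.836). For Epcam the same 3 omissions gave 0.056 (mutant replicate 2), 0.10 (control replicate 2) and 0.28 (control replicate 4).

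Most of the 10 genes shared much of their pattern over the libraries. Pearson's r with the mean of the other members ran from 0.81 to 0.92 for Ocln, Epcam, Cldn6, Cldn4, Cldn7 and Cdh1. It was 0.65 for Cldn23, 0.63 for Cldn3, 0.58 for Cldn8 and 0.34 for Cldn1. Mutant replicate 2 held the highest count of Cldn4, Cldn6, Cldn7, Cldn8, Ocln, Cdh1 and Epcam, and control replicate 2 the lowest count of 8 genes, all but Cldn3 and Cldn8. The exceptions at the top were Cldn1 and Cldn23, highest in control replicate 3, and Cldn3, highest in mutant replicate 4. Averaged over the 10 genes, the centred log2 level was 0.47 in mutant replicate 2 and -0.55 in control replicate 2, and between -0.16 and 0.19 in the other 6 libraries. The ratio of the highest to the lowest library ran from 1.64 for Cldn1 to 3.87 for Cldn23.

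Gene lists for epithelium and for other cells of the dissection were read in the same libraries. In mutant replicate 2 the centred log2 level was 0.54 for the 16 epithelial reference genes, 0.58 for 11 desmosome genes and 0.68 for 8 erythroid genes, against -0.20 for 10 mesenchymal and -0.36 for 10 endothelial markers. In control replicate 2 it was -0.27, -0.34 and -0.32 for the epithelial reference, desmosome and erythroid genes, and 0.12 and 0.10 for the mesenchymal and endothelial markers. The epithelial reference genes were about as low in mutant replicate 1, at -0.27, where the 10 junction genes were at -0.16. These 2 libraries, mutant replicate 2 and control replicate 2, were not the extremes of every list. Erythroid genes were lowest in mutant replicate 1, at -0.48, and Schwann cell markers were highest there, at 1.02, and lowest in control replicate 3, at -0.54. Between the groups, 15 of 16 epithelial reference genes had a higher mean in mutants and their median log2 difference was 0.20, and the list's difference in mean log2 level was 0.23, or 0.088 without mutant replicate 2. The 10 junction genes had a difference of 0.23, and 0.12 without that library. The mesenchymal markers summed to 349460 to 455290 normalised read counts in mutants and 416410 to 516940 in controls, and 7 of 10 had a lower mean in mutants. The 10 endothelial markers summed to 14558 to 19626 in mutants and 19652 to 20765 in controls, with 9 of 10 lower means in mutants. The 8 erythroid genes summed to 24566 to 53643 in mutants and 26376 to 35518 in controls, and 8 Schwann cell markers to 3188 to 6763 in mutants and 3079 to 3515 in controls. Higher means in mutants were found for 8 of 8 erythroid genes (median log2 difference 0.29) and 7 of 8 Schwann cell markers (median 0.46). Both medians were above those of the 10 junction genes (0.25) and the epithelial reference (0.20). At an unadjusted limma p under 0.05 there were 5 endothelial and 2 mesenchymal markers, all lower in mutants. There were also 3 epithelial reference, 2 erythroid and 2 Schwann cell genes, all higher. Over all genes 2.78% were higher and 3.79% lower at such a p, and 0 genes of these lists passed after adjustment. The part of these markers in the junction gene differences was not tested.

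**Figure D2:**
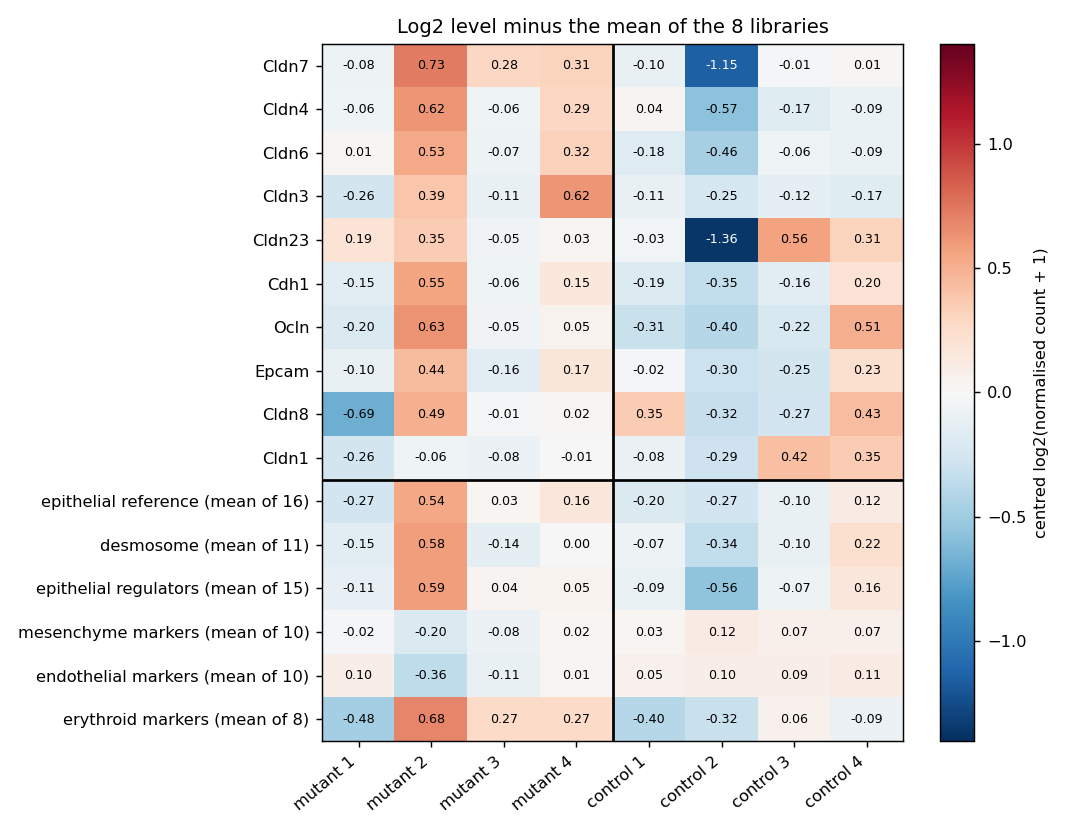
Centred log2 level (log2 of the normalised count plus 1, minus the mean of the 8 libraries) of the 10 junction genes and of 6 gene lists, with mutants left of the vertical line and controls right of it. Mutant replicate 2 was high and control replicate 2 low for most junction genes and for the epithelial lists, while Cldn1 was highest in control replicate 3. The epithelial reference was about as low in mutant replicate 1 as in control replicate 2.

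Set against the mean log2 level of the epithelial reference genes in the same library, most of the junction genes differed less from library to library. The SD over the 8 libraries was smaller on this scale for 9 of the 10 genes, and the share over all genes was not counted. It was 0.071 for Cdh1, against 0.28 on the deposited scale, but 0.53 for Cldn23, against 0.59. Cldn1 was the exception, with an SD of 0.33 on this scale, against 0.26. Cdh1 was 2.25 ± 0.082 log2 units above the reference mean in mutants and 2.24 ± 0.069 in controls (SD, n = 4 each), a log2 difference of 0.016. The difference was -0.055 for Epcam, -0.017 for Ocln and 0.031 for Cldn23. Cldn7 had a log2 difference of 0.40, with -1.05 ± 0.045 in mutants and -1.44 ± 0.46 in controls, where control replicate 2 was at -2.12. Cldn4 and Cldn6 were at a log2 difference of 0.17 each and Cldn3 at 0.093, whereas Cldn8 was at -0.32 and Cldn1 at -0.43, the farthest below 0. This scaling lowers every gene by the same amount and puts the median of all genes at -0.23 on the log2 scale. None of the 10 passed the limma test on it (smallest adjusted p = 0.695, shared by Cldn1, Cldn7 and Cldn8). On this scale 0 of the 10 had an unadjusted limma p under 0.05, against 3 on the deposited scale. The share of all genes with such a p was not counted on this scale, so these counts lack a common background. The unadjusted limma p was 0.46 for Cldn4, 0.45 for Cldn6 and 0.12 for Cldn7.

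**Figure D3:**
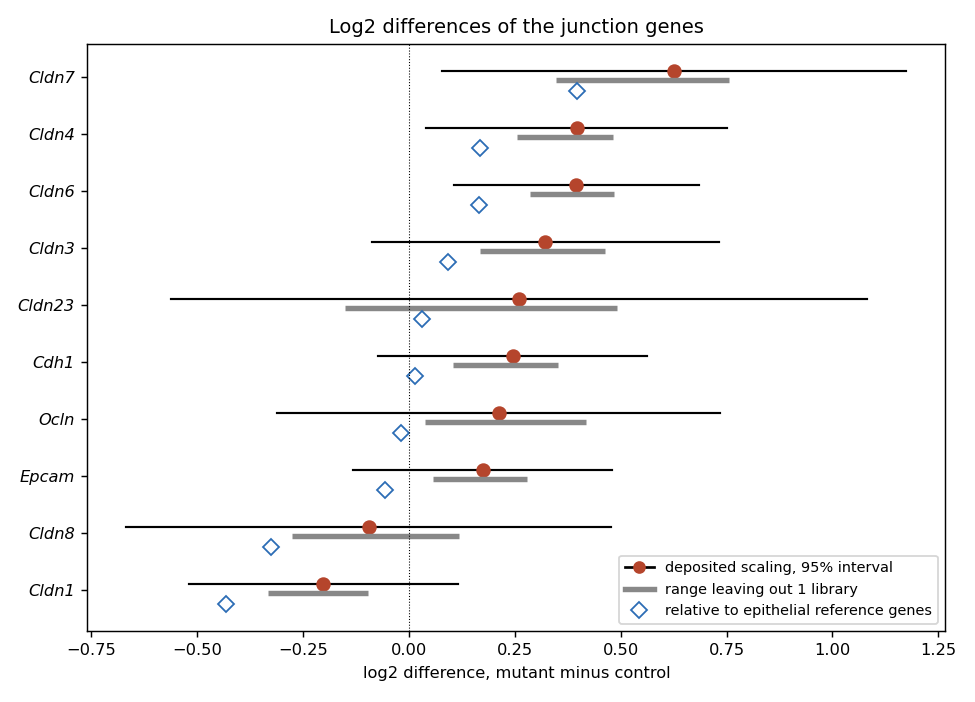
Log2 difference, mutant minus control, of each junction gene: filled points with 95% intervals from limma on the deposited scale, grey bars for the range over fits that leave out 1 library, and open diamonds for the difference relative to the epithelial reference genes. Cldn7, Cldn4 and Cldn6 had intervals above 0 before adjustment, and relative to the reference Cdh1, Ocln and Epcam lay between -0.055 and 0.016.

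Ratios within a library set the claudins against each other, and were looked at after the opposite sign of Cldn1 was seen. Cldn6 to Cldn1 was 1.89, 2.36, 1.58 and 1.97 in mutants, against 1.46, 1.39, 1.13 and 1.16 in controls. Every mutant lay above every control. Cldn7 to Cldn1 was 0.551, 0.842, 0.627 and 0.607 in mutants, against 0.479, 0.267, 0.360 and 0.384 in controls, again without overlap. Cdh1 to Cldn1 averaged 6.48 ± 1.26 in mutants and 4.74 ± 0.721 in controls, also without overlap. Of the 9 ratios of a member to Cldn1, 3 were higher in every mutant than in every control, beside 2.64% of all genes. This was not particular to junction genes. Among the 16 epithelial reference genes, the ratios of Krt8, Krt14, Krt18 and Tmprss2 to Cldn1 were also higher in every mutant. The ratios of all the other genes on that list overlapped between the groups. No other ratio between members, of 45 in all, was without overlap. The ratio of Cldn4 to Cldn3 was 3.96 ± 0.666 in mutants and 3.75 ± 0.515 in controls, and that of Epcam to Cdh1 0.643 ± 0.037 in mutants and 0.676 ± 0.050 in controls, with overlap in both cases (SD, n = 4 each).

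Claudins outside these 10 had means on both sides of the controls. Of 24 further claudin and claudin-like genes in the table, 7 passed the filter on low counts, with 3 higher and 4 lower means in mutants. Their median log2 difference was -0.03 and 0 passed (limma adjusted p of 0.954 or more, 0 at an unadjusted p under 0.05). Cldn5, the claudin of endothelium, had 725 ± 182 normalised read counts in mutants and 686 ± 89.6 in controls (log2 difference 0.05, SE 0.175). Cldn12, which many tissues express, had 932 ± 89.6 in mutants and 919 ± 83.2 in controls (log2 difference 0.02, SE 0.0996). Cldnd1, a claudin-domain gene, was the most abundant of these 7 per kb, at 1135 ± 67.1 in mutants and 1162 ± 88.4 in controls. Cldn10 had 60.7 ± 11.9 normalised read counts in mutants and 61.2 ± 18.6 in controls, and Cldn11, a claudin of myelin and testis, 84.4 ± 54.2 in mutants and 83.7 ± 30.4 in controls. Cldn34c1 had 71.7 ± 7.77 in mutants and 78.5 ± 19.2 in controls. Of the 24 genes, 7 were listed at 0 in all libraries and the rest of those not tested were below the filter.

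The partners of these proteins were read from lists. Among 31 tight junction partners, 18 had higher means in mutants and the median log2 difference was 0.04, and 0 passed in limma (1 at an unadjusted p under 0.05). Cxadr, an immunoglobulin-family protein of the tight junction, had 1732 ± 286 normalised read counts in mutants and 1459 ± 86.1 in controls, with the lowest mutant at 1559.1 and the highest control at 1556.5 (limma log2 difference 0.24, adjusted p = 0.754). Lsr, which marks junctions where 3 cells meet, had 1463 ± 399 in mutants and 1095 ± 224 in controls. Among 21 adherens junction genes 16 had higher means (median 0.07, 0 passing, 1 at an unadjusted p under 0.05). That 1 was Wtip, a LIM protein, with 1304 ± 70.7 in mutants and 1157 ± 75.2 in controls. All 11 desmosome genes had higher means (median 0.13, 0 passing, 0 at an unadjusted p under 0.05), with Perp, a desmosomal membrane protein, at 3100 ± 818 in mutants and 2530 ± 503 in controls. Without mutant replicate 2 the mean log2 difference was -0.011 for the tight junction partners, -0.035 for the adherens junction genes and -0.018 for the desmosome genes, against 0.042, 0.041 and 0.15 in the same order with it.

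Means of regulators of these genes lay in both directions. Of 15 epithelial regulators 13 had higher means in mutants (median 0.19, 0 passing in limma, 2 higher and 1 lower at an unadjusted p under 0.05). Ovol2, a repressor of mesenchymal genes in epithelium, had 91.4, 141.0, 83.0 and 142.6 normalised read counts in mutants, against 39.4, 7.8, 39.0 and 99.2 in controls. Control replicate 4 lay among the mutants (limma log2 difference 1.70, SE 0.598, adjusted p = 0.754). Esrp2, an epithelial splicing regulator, had 1534 ± 444 in mutants and 1035 ± 205 in controls, higher in every mutant (limma log2 difference 0.55, SE 0.187, adjusted p = 0.754). Klf4, a factor of differentiating surface epithelium, had 4359 ± 771 in mutants and 5405 ± 564 in controls. Unlike most junction genes, Klf4 was lowest in mutant replicate 2 (3317.3) and highest in control replicate 2 (5830.7). Grhl3, a Grainyhead-like factor of surface epithelium and periderm, had 732 ± 208 in mutants and 572 ± 99.6 in controls. Of 6 genes for repressors of Cdh1, 2 had higher means and 4 lower ones (median -0.05, 0 passing, 0 at an unadjusted p under 0.05), with Zeb2 at 4096 ± 1054 in mutants and 4973 ± 496 in controls and Snai1 at 2524 ± 816 in mutants and 3147 ± 491 in controls. Of 7 EpCAM partners and surface proteases 6 had higher means (median 0.22, 0 passing, 0 at an unadjusted p under 0.05), among them Spint2, a protease inhibitor of epithelial surfaces, with 2835 ± 528 in mutants and 2319 ± 347 in controls.

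**Figure D4:**
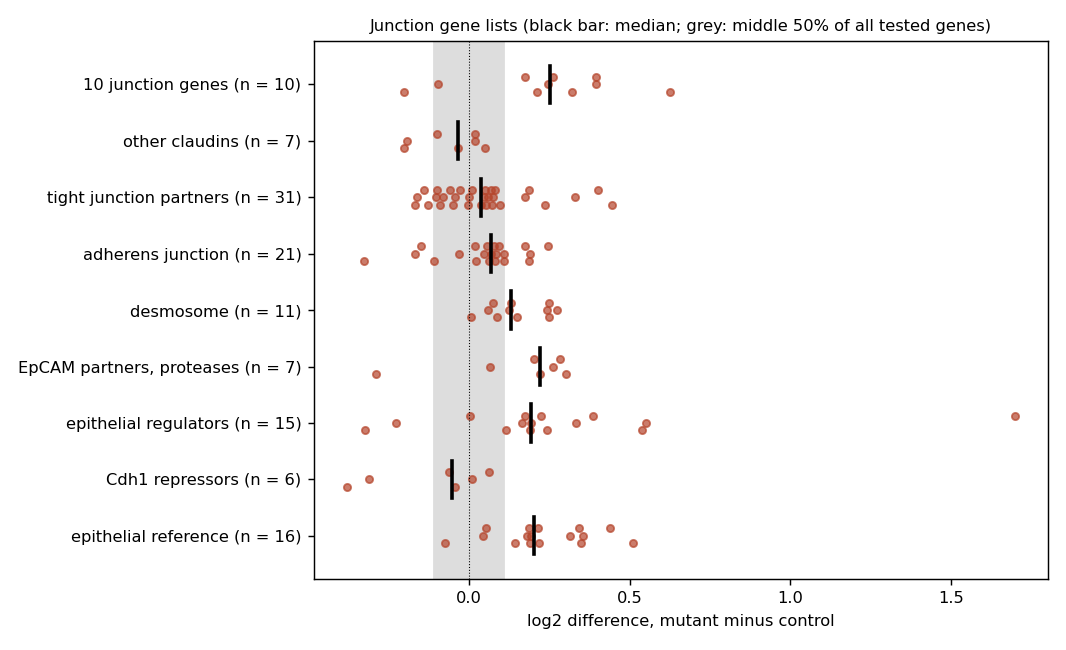
Log2 difference, mutant minus control, of every tested gene (points) in 9 lists, with the list's median as a black bar; the grey band holds the middle 50% of all tested genes, from -0.11 to 0.11. The median was 0.25 for the 10 junction genes, 0.20 for the epithelial reference and -0.03 for the other claudins.

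The genes outside the lists whose log2 profile over the 8 libraries was most like the mean profile of the 10 were Gsta3, Arhgef19, Muc1, Map3k6, Fam60a and Hook1. Pearson's r ran from 0.96 to 0.98 and Spearman's rank correlation from 0.76 to 0.98, and without mutant replicate 2 r stayed between 0.95 and 0.97. They were picked for this likeness out of all genes tested, so it is a description with no p. Muc1, a mucin of epithelial surfaces, had 107 ± 30.3 normalised read counts in mutants and 94.0 ± 33.9 in controls. The log2 differences of these 6 genes lay between 0.18 and 0.33, with limma adjusted p from 0.819 to 0.923.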

How the data were processed

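RNA of posterior palatal shelves was measured in 8 libraries, grouped as 4 mutants and 4 controls by the genotype labels and numbered within each group. The submitters' processing notes list STAR 2.7.2 and DESeq2; no source used here gives the counting tool, strand setting, annotation or build. The deposited signal values are the authors' normalised counts: each library's reads over its size factor (0.939 to 1.06). Dividing by that step gave whole reads within 0.06 for 100% of values between 50 and 5000. The log2 values deposited by the authors are variance-stabilised and served in 1 alternative.

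The limma 3.58.1 test (R 4.3.3) took genes that reached 10 normalised counts in 4 or more libraries (16647, all 10 junction genes included). Values entered as log2 after adding 1, and the model had a trend on mean level and genotype as its only term, two-sided, Benjamini-Hochberg adjusted over all genes at 0.05; fold values are on that scale. Intervals are at 95% before adjustment. edgeR 4.0.16 and DESeq2 1.42.0 ran on the recovered reads as alternatives, and other alternatives changed the pseudocount, filter, scaling, replicate block and libraries. Exon lengths are unions of GENCODE exons on GRCm38.

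All 10 junction genes are named, with up to 4 genes of each other list by smallest p at most, the tested claudins, and the 6 genes outside the lists with the highest Pearson r to the mean profile. Epithelial reference genes are instead named by their ratio to Cldn1. The members and lists were chosen with earlier results of these data known. Figures were drawn with matplotlib 3.10.9.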

Additional observations from a re-analysis of the deposited data

Results flagged for a closer look

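Within groups of 4 libraries, 2 of the 20 groups examined (10 genes, mutants and controls) held a library far from the rest, where chance gives about 1 in 20. Cldn7 had 212.8 normalised read counts in control replicate 2, a gap to the nearest control that took up 0.865 of the range of the controls. Ocln had 347.6 in control replicate 4, with a gap of 0.849 of that range.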

How the results depend on the processing

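No junction gene passed under any of the 19 alternatives. The number with a higher mean in mutants ran from 7 (without control replicate 2) to 9. It was 6 when scaled to the epithelial reference genes, beside 13.75% of all genes that were higher on that scale. Over all genes, limma called 4 and DESeq2 28. Leaving out 1 library gave 0 (without mutant replicate 3, control replicate 2 or control replicate 4) to 11 (without control replicate 3). It gave 8 when mutant replicate 4 was left out; scaling to the epithelial reference genes gave 37. The sign of Cldn8 turned to 0.24 with the first title number as a replicate block, and leaving out 1 library put it between -0.27 and 0.12, positive without mutant replicate 1 (0.12), control replicate 1 (0.0074) or control replicate 4 (0.033). That of Cldn23 turned to -0.15 without control replicate 2, within a range of -0.15 to 0.49. Scaled to the epithelial reference genes, Ocln was at -0.017 and Epcam at -0.055, since that scaling subtracts 0.23 from every gene. The replicate block called 6 genes and no junction gene, with 9 of 10 higher. Deviations of same-numbered mutant and control libraries correlated at -0.0077 to 0.10, against -0.085 to 0.076 for differently numbered ones. Few libraries share a number, so these values cannot show whether the numbers carry a shared effect. The main fit used genotype only. The stabilised values were tried after seeing the data and called 3 genes. The lowest number of reads behind a junction gene was 38, for Cldn23 in control replicate 2.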
